A study of Danio rerio with 6 samples.

Results

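The digestive enzyme genes of the exocrine pancreas were followed in zebrafish at 5 days after fertilization, after exposure to BP-3 and in controls. A list of 43 names was taken, covering trypsins, chymotrypsins, elastases, carboxypeptidases, amylases, lipases, genes of acinar secretion and acinar transcription factors. Members were the count rows whose gene name equalled a listed name, and 27 of the 43 names had such a row among 32053 rows. Of the other 16 names, 5 stand in the count tables under an older clone name that RefSeq gives as a synonym, and these are described separately. A further 2 names are RefSeq synonyms of members already counted, ctrb.1 of ctrb1 and ctrc of ela2l. The remaining 9 names were not analysed here: cela1.1, cela1.2, cela1.3, cela1.4, cela1.6, pnlip, pnliprp2, clps and erp27.

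The exposed group had 3 libraries from embryos kept in 2 mg/L BP-3, a usual abbreviation of benzophenone-3, a sunscreen filter of ultraviolet light, and the control group had 3 libraries labelled WT in their titles and Control in the treatment field. All 6 libraries were made from total RNA of tissue dissected with forceps and labelled intestinal, and the strain field says zebrafish for both groups. By its treatment label, exposed replicate 1 is BP-3, replicate 2 BP-4 and replicate 3 BP-5, while titles and protocol name BP-3 alone, so they were taken as 1 group. The labels do not tie replicates to separate clutches or pools, so the p-values cover the spread among these 6 libraries, which may be technical.

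Acinar cells of the pancreas make digestive enzymes, store most of them as inactive zymogens in granules, and release them through ducts into the gut. In the gut, enteropeptidase activates trypsin, and trypsin activates the other zymogens. In zebrafish the exocrine pancreas lies along the anterior intestine, and acinar identity depends on the transcription factor complex that contains Ptf1a.

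Total counts lay between 23567603 and 41726516 per library. Acinar enzyme genes had counts in every library of the tissue labelled intestinal, and so did markers of muscle, skin, liver and eye. Counts for 12 skeletal muscle markers took 6.18 to 6.88% of counts in BP-3 libraries and 6.32 to 7.07% in controls. Counts for 11 enterocyte markers took 0.918 to 0.957% in BP-3 libraries and 0.633 to 0.644% in controls. Most of these counts came from apobb.1, whose mean CPM (counts scaled to library size) was 5252 in BP-3 libraries and 3479 in controls. Next was apoa1a, with means of 1759 CPM in BP-3 libraries and 935 CPM in controls. The summed share therefore says little about the other enterocyte markers, and 6 of the 11 did not pass the test described below. In bulk RNA, fewer cells of a type and less RNA per cell cannot be told apart.

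Replicate 3 stood apart for the enzyme genes in both groups. Each of the 17 enzyme members was lower in replicate 3 than in the mean of replicates 1 and 2, in the BP-3 group and again in the control group. At the median an enzyme in replicate 3 reached 77.8% of that mean in BP-3 libraries (range 55.7 to 97.8%) and 79.6% in control libraries (range 71.8 to 97.4%). Over all 23167 rows tested the medians were 99.7% in BP-3 libraries and 99.1% in control libraries. The pattern was not confined to the enzymes. The muscle marker mylpfa reached 81.3% in BP-3 and 83.9% in control, and the lens marker cryba4 75.2 and 72.3%. Other markers did not show it, such as the muscle marker ttn.2 at 113 and 115%. Calls are therefore given for all 6 libraries and for the fit without both replicate 3 libraries. That fit keeps only replicates 1 and 2 of each group, and the reason for it lies in the enzymes' own values. Leaving out libraries that stand apart for the enzymes narrows their spread, so smaller p-values are partly built in. Its calls for the enzymes are not independent support. The fit with replicate 3 as a term, given below, shares this limit.

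The comparison of BP-3 with control libraries asks whether enzyme transcripts differed after exposure. All 27 members passed the filter on low counts. In edgeR's quasi-likelihood test, adjusted by Benjamini-Hochberg over all rows, 4 of 27 members (14.8%) were lower in BP-3 at an adjusted p of 0.05, against 4.29% of all rows tested. The 4 genes were the carboxypeptidase genes cpa1, cpa4 and cpb1 and the amylase gene amy2a. DESeq2 called 9 members lower, against 5.75% of the rows it gave an adjusted p, and limma-voom 5, against 4.45% of rows. No member was higher by edgeR, against 6.26% of all rows, nor by DESeq2 or limma-voom, and 1 member (prss60.3) was higher at an unadjusted p under 0.05. The log2 fold change was below 0 for 24 of 27 members, against 50.2% of all rows. Its median over the members was -0.26, and over all rows tested it was -0.0010. Groups did not overlap, with BP-3 lower, for 7 members (25.9%), against 14.9% of all rows. Members can shift together within a library, as the enzymes did in replicate 3. Counts of members, here and in the fits below, are therefore not counts of separate observations.

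Without both replicate 3 libraries, 18 of 27 members (66.7%) were lower in BP-3, against 7.47% of all rows, and 16 of these 18 were enzymes. All 4 genes named above were among the 18. In that fit 1 member, prss60.3, was higher, against 9.18% of all rows. With replicate 3 as a term in the fit over all 6 libraries, the same 18 members were lower, against 10.7% of rows, and prss60.3 was higher, against 12.7% of rows. The count of 4 also moved when 1 library was left out. Without BP-3 replicate 2, control replicate 1 or control replicate 2 it was 1, cpa1, and calls over all rows fell too, to 1.67, 1.87 and 1.98% lower. Without control replicate 3 it was 12, against 4.44% of rows. With BP-3 replicate 1 as the only exposed library it was 0, against 0.594% of rows. In that fit the controls alone supply the spread, so its count cannot be compared with the others. Its median log2 fold change over the members was -0.18, against -0.26 over 6 libraries. For cpa1 it was -0.77, against -0.89, and for prss59.2 it was -0.045, against -0.25.

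**Figure D1:**
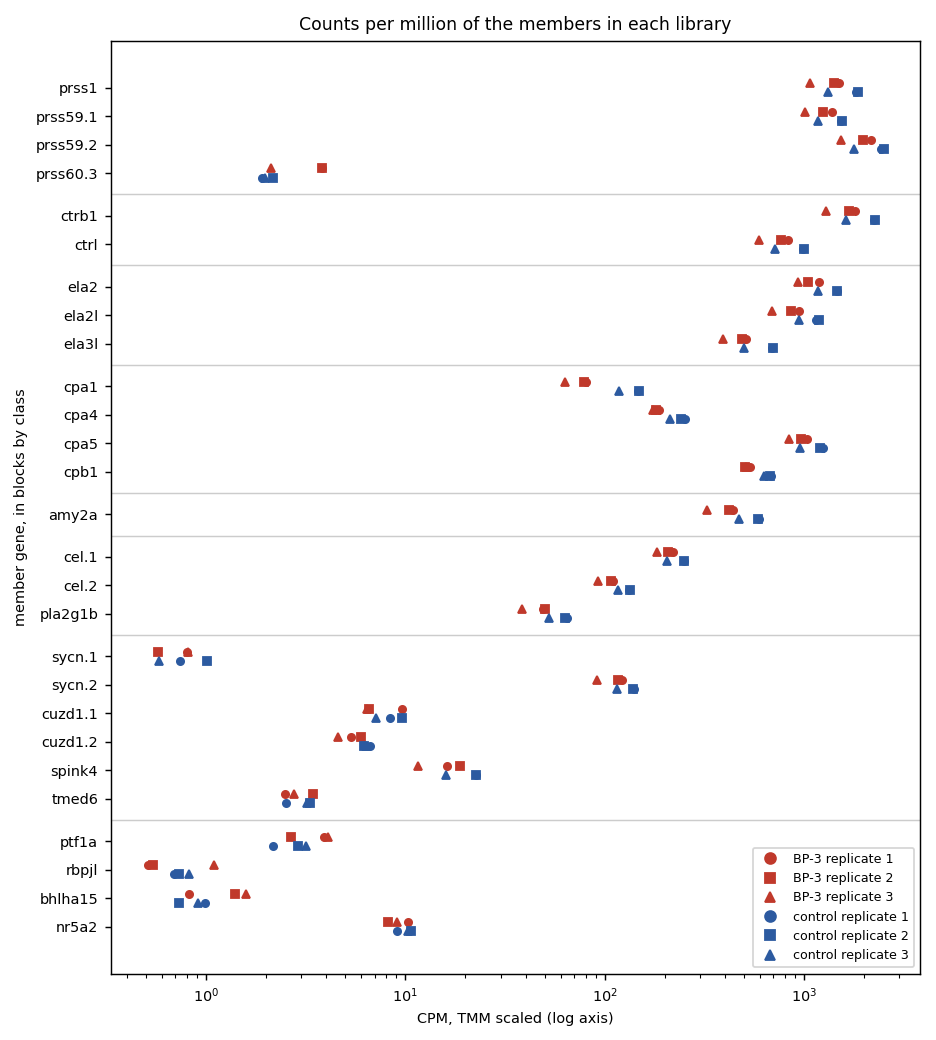
CPM, scaled by TMM, of the 27 members in each of the 6 libraries, on a log axis, with genes in blocks by class. Red symbols are BP-3 libraries and blue symbols control libraries, and the shape gives the replicate number. For most enzymes the replicate 3 triangles sit left of the other libraries of their group, and for cpa1 all red symbols (63.3 to 80.6 CPM) sit left of all blue ones (117 to 149 CPM).

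The carboxypeptidases, which remove amino acids from the carboxyl end of peptides, were the class with most calls, with 3 of 4 members lower. Expression of cpa1, an A-type carboxypeptidase that prefers aromatic and aliphatic ends, was 80.6, 78.5 and 63.3 CPM in BP-3 libraries, against 146, 149 and 117 CPM in control libraries. CPM are counts scaled to library size, here with TMM factors. The groups were far apart, and the highest BP-3 library lay well below the lowest control. The means were 74.1 ± 9.46 CPM over the BP-3 libraries and 138 ± 17.5 CPM over the controls (SD, n = 3 each), and edgeR gave a log2 fold change of -0.89 ± 0.12 (SE, adjusted p = 0.00126), 1.86-fold lower. Of the 18 alternatives run, cpa1 stayed past the threshold in 17 and missed it in the fit with BP-3 replicate 1 alone (adjusted p = 0.0502), where the lone exposed library is assumed to vary like the controls. Its log2 fold change was -0.89 without both replicate 3 libraries too (adjusted p = 5.49e-06).

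Expression of cpb1, a B-type enzyme that removes basic residues, was 536, 503 and 508 CPM in BP-3 libraries, against 683, 675 and 628 CPM in control libraries. Replicate 3 stood less apart here than for most enzymes. The means were 515 ± 17.8 CPM over the BP-3 libraries and 662 ± 29.7 CPM over the controls (SD, n = 3 each), a log2 fold change of -0.36 ± 0.07 (SE, adjusted p = 0.0104). Expression of cpa4, another A-type member, was 188, 182 and 174 CPM in BP-3 libraries, against 252, 242 and 211 CPM in control libraries. Its groups did not overlap either, and its log2 fold change was -0.38 ± 0.08 (SE, adjusted p = 0.0159). Without BP-3 replicate 2, control replicate 1 or control replicate 2, the adjusted p of cpb1 became 0.0685, 0.0604 and 0.0528. For cpa4 the same 3 fits gave 0.0738, 0.0794 and 0.0697. Both passed without both replicate 3 libraries, with log2 fold changes of -0.39 for cpb1 (adjusted p = 0.000314) and -0.42 for cpa4 (adjusted p = 0.000338).

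The fourth carboxypeptidase gene, cpa5, did not pass the test over 6 libraries. Its values were 1028, 962 and 839 CPM in BP-3 libraries, against 1240, 1199 and 948 CPM in control libraries. BP-3 replicates 1 and 2 lay above control replicate 3 and below the other controls. The log2 fold change was -0.26, with a 95% interval of -0.51 to -0.01 before adjustment (adjusted p = 0.178), and without both replicate 3 libraries it was -0.29 (adjusted p = 0.00151). In the RefSeq order of genes on GRCz12tu, cpa1 and cpa5 are direct neighbours.

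Counts of cpa1 were also set against those of cpa5 in the same library, a ratio chosen after values were seen and therefore not tested. For every 100 counts of cpa5 there were 7.84, 8.16 and 7.54 counts of cpa1 in BP-3 libraries, against 11.8, 12.4 and 12.4 in control libraries. In this ratio replicate 3 lay close to the other replicates of its group. The same ratio for cpb1 was 52.1, 52.3 and 60.5 in BP-3 libraries, against 55.1, 56.3 and 66.2 in control libraries, and these groups overlapped.

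Amylase, which cleaves starch, was represented by amy2a. Its values were 440, 419 and 326 CPM in BP-3 libraries, against 596, 588 and 471 CPM in control libraries, with no overlap. The means were 395 ± 60.7 CPM over the BP-3 libraries and 552 ± 69.7 CPM over the controls (SD, n = 3 each), a log2 fold change of -0.48 ± 0.12 (SE, adjusted p = 0.0356), 1.4-fold lower. Leaving out BP-3 replicate 2, BP-3 replicate 3, control replicate 1 or control replicate 2 took its adjusted p to 0.0893, 0.0608, 0.127 and 0.122. It was 8.31e-05 without both replicate 3 libraries.

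**Figure D2:**
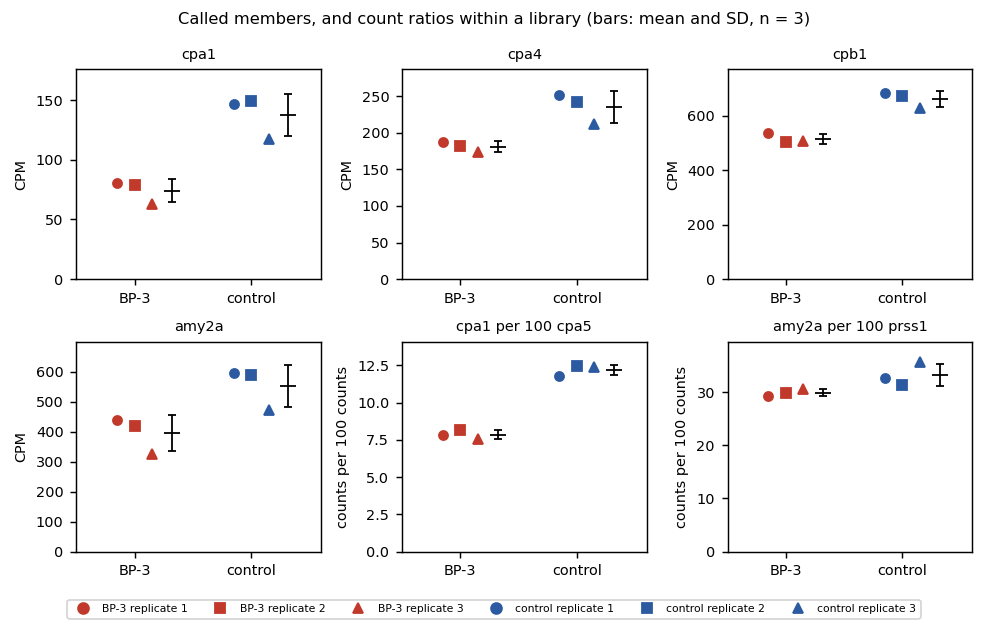
Values in each library for the 4 members past the threshold (CPM, TMM scaled) and for 2 count ratios within a library, cpa1 per 100 counts of cpa5 and amy2a per 100 counts of prss1. Red symbols are BP-3 libraries and blue symbols control libraries, shapes give the replicate number, and black bars are the mean and SD (n = 3). In all 4 CPM panels the BP-3 libraries lie below the control libraries, and cpa1 per 100 cpa5 lies at 7.54 to 8.16 in BP-3 and 11.8 to 12.4 in control.

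Trypsins cleave after lysine and arginine and start the activation of the other zymogens. Expression of prss59.2 was 2165, 1968 and 1530 CPM in BP-3 libraries, against 2429, 2500 and 1783 CPM in control libraries. Expression of prss1 was 1497, 1406 and 1063 CPM in BP-3 libraries, against 1817, 1868 and 1323 CPM in control libraries. For both genes BP-3 replicates 1 and 2 lay above control replicate 3 and below the other controls, so the groups overlapped. The log2 fold changes were -0.25 (95% interval -0.58 to 0.09, adjusted p = 0.341) for prss59.2 and -0.34 (95% interval -0.67 to -0.00020, adjusted p = 0.191) for prss1. Without both replicate 3 libraries they were -0.25 (adjusted p = 0.00478) and -0.34 (adjusted p = 0.000383). The gene prss59.1, which directly neighbours prss59.2 in RefSeq and may share reads with it, had a log2 fold change of -0.23 (adjusted p = 0.321).

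The gene prss60.3 differed in direction from the other serine protease members. Its values were 3.81, 3.81 and 2.12 CPM in BP-3 libraries, against 1.90, 2.17 and 1.98 CPM in control libraries. BP-3 replicates 1 and 2 were above every control, and BP-3 replicate 3 was among the controls. Its log2 fold change of 0.71 ± 0.24 (SE) did not pass over 6 libraries (adjusted p = 0.0929). It passed without BP-3 replicate 3 (log2 fold change 0.92, adjusted p = 0.0178) and without both replicate 3 libraries (0.91, adjusted p = 0.0171).

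Chymotrypsins cleave after large aromatic residues. Expression of ctrb1 was 1799, 1674 and 1289 CPM in BP-3 libraries, against 2226, 2263 and 1628 CPM in control libraries. Expression of ctrl was 834, 763 and 594 CPM in BP-3 libraries, against 983, 994 and 712 CPM in control libraries. Again only the replicate 3 controls reached into the range of the BP-3 libraries. Neither passed over 6 libraries, with log2 fold changes of -0.36 (95% interval -0.69 to -0.03, adjusted p = 0.152) and -0.30 (95% interval -0.62 to 0.03, adjusted p = 0.240). Both passed without both replicate 3 libraries, at -0.37 (adjusted p = 0.000275) and -0.31 (adjusted p = 0.00187).

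Elastases are named for the digestion of elastic fibres. The name ctrc, listed among the chymotrypsins, is a RefSeq synonym of ela2l, which is counted here as an elastase. Expression of ela2 was 1187, 1043 and 925 CPM in BP-3 libraries, against 1463, 1457 and 1169 CPM in control libraries. Expression of ela2l was 945, 861 and 692 CPM in BP-3 libraries, against 1151, 1189 and 943 CPM in control libraries. The overlap was narrow for both, with BP-3 replicate 1 just above control replicate 3. The log2 fold changes were -0.37 ± 0.11 (SE, adjusted p = 0.0640) and -0.39 ± 0.12 (SE, adjusted p = 0.0713), and the third elastase, ela3l, had -0.44 ± 0.14 (SE, adjusted p = 0.0704). Their adjusted p-values were 0.00118, 0.000704 and 7.31e-05 without both replicate 3 libraries. RefSeq places ela2 and ela2l next to each other, and reads of close copies may be split between them.

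Lipid digestion was represented by cel.1 and cel.2, lipases that need bile salts, and by pla2g1b, a secreted phospholipase. Expression of cel.1 was 220, 208 and 183 CPM in BP-3 libraries, against 250, 250 and 204 CPM in control libraries. Expression of cel.2 was 110, 107 and 92.8 CPM in BP-3 libraries, against 133, 133 and 116 CPM in control libraries. Its groups did not overlap, yet its log2 fold change of -0.30 ± 0.09 (SE) missed the threshold (adjusted p = 0.0562), as did that of pla2g1b (-0.39 ± 0.11, SE, adjusted p = 0.0553). For cel.1 it was -0.20, with a 95% interval of -0.43 to 0.02 (adjusted p = 0.230). Without both replicate 3 libraries, where 7.47% of all rows were lower, all 3 passed. Their adjusted p-values in that fit were 0.0105 for cel.1, 0.00394 for cel.2 and 0.00276 for pla2g1b. The cel genes are direct neighbours in RefSeq, and the split of reads between them is uncertain.

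By class, the summed counts of each enzyme class took a smaller mean share of all counts in BP-3 libraries than in control libraries. Amylase took 0.0395 ± 0.00548% in BP-3 and 0.0549 ± 0.00560% in control (SD, n = 3 each), a ratio of 0.720. The ratio was 0.765 for elastases, 0.794 for chymotrypsins and 0.797 for carboxypeptidases. It was 0.836 for trypsins and 0.841 for lipases. Without replicate 3 the ratios of these 6 classes lay between 0.734 (amylase) and 0.842 (lipases). The 27 members together took 1.3, 1.21 and 1.01% of counts in BP-3 libraries, against 1.56, 1.57 and 1.25% in control libraries.

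The make-up of the member counts was compared within each library, with no test. Trypsins made up 36.6 to 38.4% of them in BP-3 libraries and 35.2 to 37.0% in control libraries. Chymotrypsins made up 19.1 to 20.1% in BP-3 and 19.3 to 20.3% in control. The ranges of amylase did not overlap, at 3.31 to 3.46% in BP-3 and 3.67 to 3.88% in control. Nor did those of elastases, at 19.7 to 20.4% in BP-3 and 20.8 to 21.5% in control. Those of carboxypeptidases overlapped, at 13.9 to 16.1% in BP-3 and 14.1 to 15.7% in control. Lipases overlapped too, at 2.881 to 3.185% in BP-3 and 2.785 to 3.068% in control. Shares of member counts add up to 100% within a library, so the classes are tied to one another. For CPM of single rows, groups did not overlap with BP-3 lower in 14.9% and higher in 16.1% of all rows tested. For every 100 counts of prss1 there were 120, 119 and 121 counts of ctrb1 in BP-3 libraries, against 123, 121 and 123 in control libraries.

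**Figure D3:**
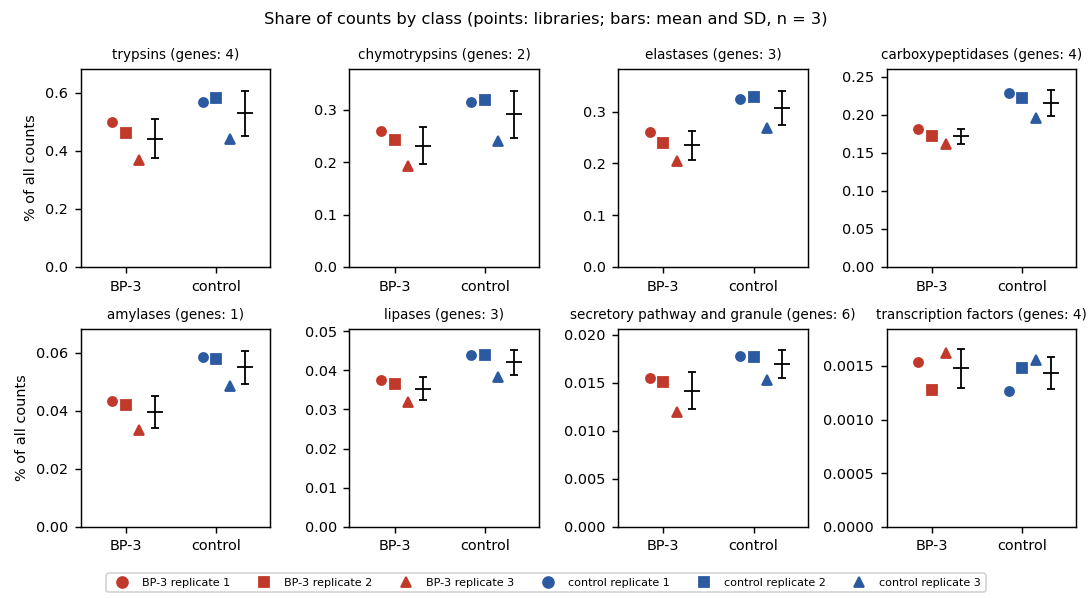
Percent of all counts taken by each class of members, with BP-3 libraries in red and control libraries in blue, shapes giving the replicate number, and black bars the mean and SD (n = 3). The enzyme classes are lower in BP-3 on average and lowest in replicate 3 of each group. Mean shares of the transcription factors were 0.00148% for BP-3 libraries and 0.00143% for controls. Most of that share is nr5a2, a gene expressed outside the pancreas too (mean 9.17 CPM over the BP-3 libraries, 9.99 CPM over the controls). The summed share therefore says little about ptf1a, rbpjl and bhlha15.

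The 6 tested genes of acinar secretion had a median log2 fold change of -0.20. None passed over 6 libraries by edgeR, DESeq2 or limma-voom, and none had an unadjusted p under 0.05. By edgeR, 6.26% of all rows were higher and 4.29% lower. Expression of sycn.2, a syncollin that lines the inner face of zymogen granules in mammals, was 122, 116 and 91.0 CPM in BP-3 libraries, against 140, 138 and 115 CPM in control libraries. Expression of spink4, of the Kazal family of protease inhibitors, was 16.2, 18.7 and 11.5 CPM in BP-3 libraries, against 22.7, 22.5 and 16 CPM in control libraries. Both showed the low replicate 3 of the enzymes in each group. Over 6 libraries neither passed, with log2 fold changes of -0.26 ± 0.12 and -0.39 ± 0.18 (SE; adjusted p = 0.194 for each), and without both replicate 3 libraries both did (adjusted p = 0.0160 and 0.0219).

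The other 4 genes of this class passed in neither fit. The granule protein gene cuzd1.2 had 5.34, 5.99 and 4.57 CPM in BP-3 libraries, against 6.64, 6.19 and 6.32 CPM in control libraries, with no overlap and a log2 fold change of -0.26 ± 0.14 (SE, adjusted p = 0.258). For cuzd1.1, sycn.1 and tmed6, a p24 family gene of cargo transport, the log2 fold changes were -0.14 ± 0.18, -0.11 ± 0.34 and -0.05 ± 0.20 (SE). The SEs of these 3 genes were larger than that of cuzd1.2, and a p that misses the threshold does not show that their levels were alike in both groups.

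None of the 4 transcription factors passed by edgeR, DESeq2 or limma-voom, and none had an unadjusted p under 0.05. By edgeR, 6.26% of all rows were higher and 4.29% lower, so a count of none among 4 genes is near those shares. Expression of ptf1a, which specifies acinar cells and activates enzyme genes, was 3.91, 2.67 and 4.08 CPM in BP-3 libraries, against 2.18, 2.90 and 3.18 CPM in control libraries. Replicate 3 was the highest library of each group for ptf1a, unlike for the enzymes. The libraries also held markers of other tissues, and which cells gave the ptf1a counts was not tested. The log2 fold change was 0.37, with a 95% interval of -0.12 to 0.87 (adjusted p = 0.324). Its partner in mature acinar cells, rbpjl, lay at 0.509, 0.545 and 1.1 CPM in BP-3 libraries, against 0.689, 0.735 and 0.826 CPM in control libraries.

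The factor bhlha15, known as Mist1 and needed for granule organisation in mammals, lay at 0.825, 1.4 and 1.59 CPM in BP-3 libraries, against 0.992, 0.735 and 0.909 CPM in control libraries. The nuclear receptor gene nr5a2, which supports acinar identity and is expressed outside the pancreas too, lay at 10.3, 8.17 and 9.06 CPM in BP-3 libraries, against 9.03, 10.7 and 10.2 CPM in control libraries. For all 4 factors the groups overlapped. Counts per library were low for rbpjl, at 19 to 27, and for bhlha15, at 21 to 49. A p that misses the threshold does not show that a factor's level was alike in both groups. The log2 fold changes were -0.10 (95% interval -0.94 to 0.73) for rbpjl, 0.51 (-0.22 to 1.23) for bhlha15 and -0.12 (-0.39 to 0.16) for nr5a2, with adjusted p-values of 0.898, 0.369 and 0.595.

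**Figure D4:**
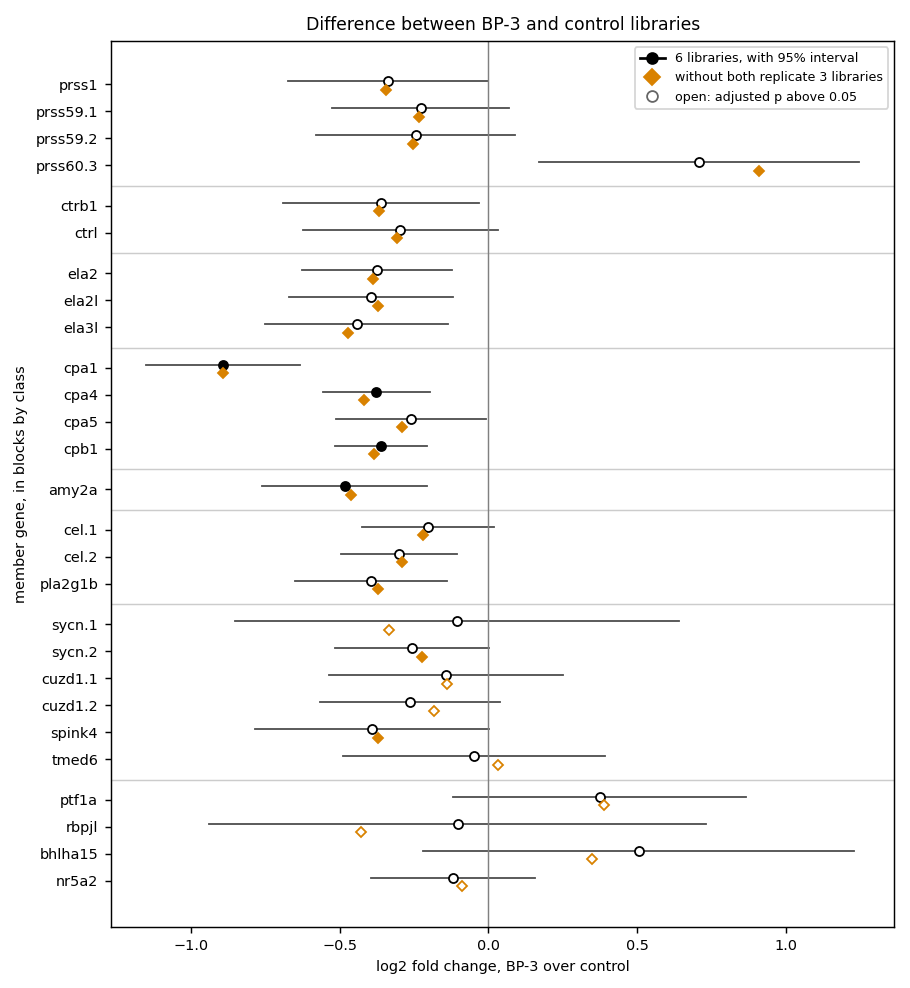
Log2 fold change of each member, BP-3 over control, from edgeR. Black circles with bars are the fit to 6 libraries with its 95% interval before adjustment, and orange diamonds are the fit without both replicate 3 libraries. Filled symbols passed an adjusted p of 0.05. The fit to 6 libraries has 4 filled circles (cpa1, cpa4, cpb1, amy2a) and the other fit 19 filled diamonds, all left of 0 except that of prss60.3, and the 4 transcription factors at the bottom are open in both.

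The 5 listed genes that stand under older clone names are not counted among the 27. The amylase gene amy2al2 (row zgc:92137) lay at 269, 266 and 222 CPM in BP-3 libraries, against 366, 359 and 304 CPM in control libraries. Its groups did not overlap and its log2 fold change was -0.44 ± 0.10 (SE, adjusted p = 0.0202). The elastase gene cela1.5 (row zgc:92511) lay at 10.3, 9.40 and 8.08 CPM in BP-3 libraries, against 15, 14.9 and 11.2 CPM in control libraries, with a log2 fold change of -0.56 ± 0.14 (SE, adjusted p = 0.0300). Both passed without both replicate 3 libraries as well (adjusted p = 0.000119 and 0.00383).

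The chymotrypsin genes ctrb.2 (row zgc:136461) and ctrb.3 (row zgc:112160) had log2 fold changes of -0.20 ± 0.13 and -0.21 ± 0.10 (SE), with adjusted p-values of 0.354 and 0.212. Both passed without both replicate 3 libraries (adjusted p = 0.0206 and 0.00299). RefSeq places ctrb.1, ctrb.2 and ctrb.3 side by side, and reads of close copies may be split among them. For amy2al1 (row zgc:66313) the values were 1.38, 1.03 and 0.408 CPM in BP-3 libraries, against 1.46, 1.96 and 2.48 CPM in control libraries. Replicate 3 was the lowest BP-3 library but the highest control for this gene, unlike the 17 enzyme members. Its log2 fold change was -0.99 ± 0.38 (SE, adjusted p = 0.129), and without both replicate 3 libraries it was -0.48 (adjusted p = 0.361).

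Other pancreas genes were taken from lists written with earlier results on these data known. The list of other acinar products also held tmprss15, the gene of enteropeptidase, an enzyme of the gut rather than of acinar cells. Of the 9 genes tested in this list, 3 were higher and 1 was lower in BP-3, against 6.26% and 4.29% of all rows. Their median log2 fold change was 0.09. The serine protease genes prss60.1 and prss60.2, relatives of prss60.3 by name, were among those higher. For prss60.1 the values were 1.21, 1.23 and 1.22 CPM in BP-3 libraries, against 0.523, 0.350 and 0.413 CPM in control libraries (log2 fold change 1.49 ± 0.31, SE, adjusted p = 0.0133). For prss60.2 they were 14.1, 11.5 and 12.9 CPM in BP-3 libraries, against 7.88, 9.66 and 6.44 CPM in control libraries (0.68 ± 0.15, SE, adjusted p = 0.0178). In neither gene did the groups overlap. The third was fkbp11, a prolyl isomerase of the secretory pathway (0.50 ± 0.12, SE, adjusted p = 0.0317), and the gene that was lower was the astacin metalloprotease gene c6ast3 (-0.60 ± 0.16, SE, adjusted p = 0.0437). Without both replicate 3 libraries, 9.18% of all rows were higher and 7.47% lower. In that fit, on a part of the same libraries, these 4 were also past the threshold. There 2 more were lower, c6ast4 (-0.29, adjusted p = 0.0203) and the enteropeptidase gene tmprss15 (-0.55, adjusted p = 0.0432).

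Of 12 factors that specify the pancreas, gata6, an endoderm factor, was higher at 12.7, 11.4 and 15.3 CPM in BP-3 libraries, against 8.15, 8.85 and 9.29 CPM in control libraries (adjusted p = 0.0186). None of the other 11 passed over 6 libraries, where 6.26% of all rows were higher and 4.29% lower, and the median of the list was 0.03. In the fit without both replicate 3 libraries 9.18% of all rows were higher and 7.47% lower. There gata6 was also past the threshold, and xbp1, a factor of secretory cells, was higher (0.27, adjusted p = 0.00637). Over 6 libraries xbp1 had a log2 fold change of 0.06 (adjusted p = 0.888), with BP-3 replicate 3 at 51.2% of the mean of the other BP-3 libraries. Of 11 genes of granule exocytosis none passed by edgeR, DESeq2 or limma-voom, with a median of 0.03 and 1 gene, vamp2, at an unadjusted p under 0.05. This gene, a vesicle SNARE gene, was lower without both replicate 3 libraries (-0.22, adjusted p = 0.0310). Of 8 genes of control by secretin and cholecystokinin none passed by these tools either, with a median of -0.05 and 1 gene, slc26a6, at an unadjusted p under 0.05. An anion exchanger gene, slc26a6 was higher without both replicate 3 libraries (0.33, adjusted p = 0.0280).

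Islet cells, the endocrine cells of the pancreas, were followed with 12 markers. In BP-3, 2 markers were lower and none higher, against 4.29% and 6.26% of all rows. The lower markers were neurod1, a factor shared with neurons and the eye (-0.42 ± 0.07, SE, adjusted p = 0.00508), and the somatostatin gene sst1.1 (-0.36 ± 0.09, SE, adjusted p = 0.0351). The insulin gene ins lay at 26.2, 25 and 17.1 CPM in BP-3 libraries, against 29.2, 29.3 and 18.5 CPM in control libraries. It was lowest in replicate 3 of each group, as the enzymes were, and its log2 fold change of -0.17 ± 0.19 (SE) did not pass (adjusted p = 0.627). With both replicate 3 libraries left out, 9.18% of all rows were higher and 7.47% lower. In that fit neurod1 and sst1.1 were also past the threshold. The glucagon gene gcga was lower as well (-0.39, adjusted p = 0.0318), and ins did not pass (adjusted p = 0.109).

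Markers of other tissues differed between the groups as well. Of all rows tested over 6 libraries, 6.26% were higher and 4.29% lower. Of 12 hepatocyte markers, 8 were higher and none lower in BP-3, and their counts took 0.727 to 0.805% in BP-3 libraries and 0.454 to 0.509% in control libraries. Of 11 enterocyte markers, 5 were higher and none lower. Those higher were apoa1a, anpepb, mttp, fabp1b.1 and apobb.1, while fabp2, apoa4a, vil1, cdx1b, slc15a1b and chia.1 did not pass. Of 12 lens and retina markers, none was higher and 6 were lower, and their counts took 0.485 to 0.535% in BP-3 libraries and 0.577 to 0.636% in control libraries. Those lower were the lens genes cryaa, crybb1, cryba1b, crygmx and mipb and the retina gene rcvrna. The lens gene cryba4 (log2 fold change -0.46) did not pass. Nor did the retina genes rho (-0.32), gnat1 (-0.07), gnat2 (0.09), opn1sw1 (-0.05) and pde6a (-0.15). Of 12 skeletal muscle markers none passed by edgeR, DESeq2 or limma-voom, with 1 at an unadjusted p under 0.05, and of 10 epidermis markers 1 was lower. More of these markers passed without both replicate 3 libraries, where 9.18% of all rows were higher and 7.47% lower. In that fit 6 of 12 skeletal muscle markers were lower and none higher, with a small median log2 fold change of -0.11. Of 10 epidermis markers 5 were lower and 2 higher, with a median of -0.10. Lens and retina markers then had 8 lower and none higher, enterocyte markers 7 higher and none lower, and hepatocyte markers 8 higher and none lower. Their part in the enzyme differences was not tested. With library sizes computed without the member rows, the same count of 4 members was lower.

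**Figure D5:**
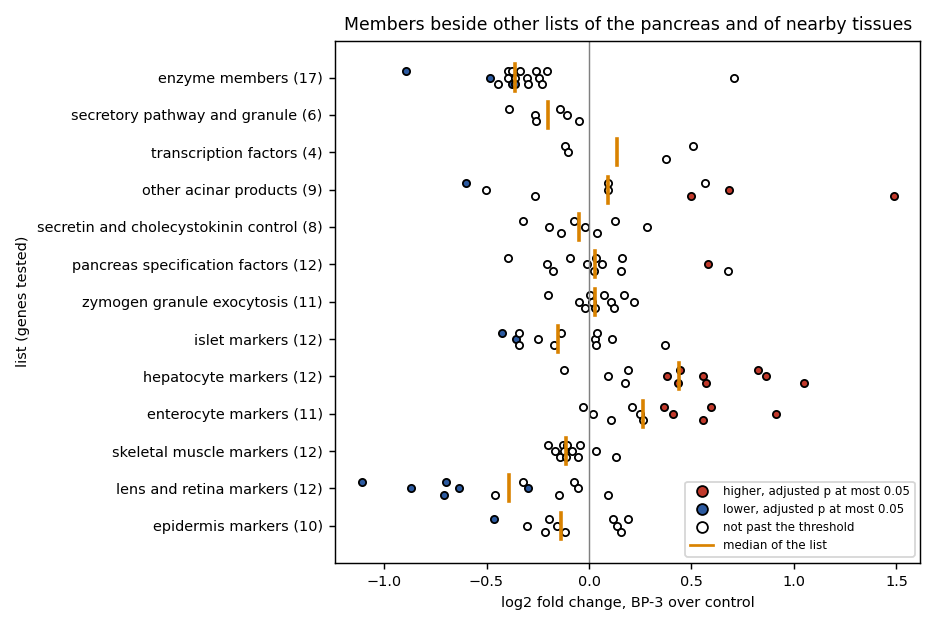
Log2 fold change, BP-3 over control, of each tested gene in the member classes and in other lists of the pancreas and of nearby tissues, with the number of genes tested in brackets. Red and blue circles passed an adjusted p of 0.05 upward and downward, open circles did not, and orange lines are list medians. The 17 enzymes have a median of -0.36 and lie left of 0 except prss60.3, the transcription factors have a median of 0.14, and hepatocyte and enterocyte markers lie mostly right of 0 with medians of 0.44 and 0.27.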

How the data were processed

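The authors deposited raw read counts per gene for 6 libraries, 3 from BP-3 embryos and 3 from controls, without normalization. Aligner, counter, annotation and strand setting: not given in the sources used here. Reads of overlapping or antisense genes may therefore be mixed. The build, per the submitters' processing notes, was mm9, a mouse build, while row names are zebrafish symbols, so no coordinates are given.

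Rows were filtered with filterByExpr (23167 of 32053 kept), scaled by TMM and tested with edgeR 4.0.16 in R 4.3.3 (glmQLFit, glmQLFTest, no covariates), with Benjamini-Hochberg adjustment over all rows and a threshold of 0.05. SE is the log2 fold change over the square root of F. The smallest two-sided exact permutation p for 3 against 3 is 0.1. On 5 simulated data sets of 23167 genes the test recovered 52.5% of 1.5-fold, 89.9% of 2-fold and 99.4% of 4-fold changes, while 7.67% of the genes called had not been changed. Each set had 200 changed genes, drawn from those with a mean of at least 1 CPM, and no shared shift of replicate 3. The rates therefore do not cover rarer genes, changes under 1.5-fold, or data with such a shift.

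Members and lists were chosen with earlier results of these data known. Given in full were members past the threshold, the 2 with most counts in each class and the transcription factors. Of 117 other genes written, 109 had a row. In pancreas lists those past the threshold are named, and other tissues are given mainly as counts. Counts are not corrected for gene length.

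The alternatives were DESeq2 size factors, upper quartile scaling, no filter, 1 CPM in 3 libraries, DESeq2 1.42.0, limma-voom (limma 3.58.1), a replicate block, each library left out, both replicate 3 libraries left out, replicate 3 as a term, BP-3 replicate 1 alone, summed rows of 1 name, and library sizes without members. Figures were drawn with matplotlib 3.10.9.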

Additional observations from a re-analysis of the deposited data

How the results depend on the processing

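Scaling, filters, summed names and library sizes without members left 4 members lower, or 5 with 1 CPM in 3 libraries, and limma-voom gave 5. DESeq2 called 9 lower, with 1280 rows lower. Adding the 5 rows under RefSeq synonyms gave 6 lower, an alternative chosen after seeing the data. Without both replicate 3 libraries 18 members were lower and 1 higher, with 1747 rows lower. With replicate 3 as a term it was again 18 and 1, with 2490 rows lower and 2931 higher. BP-3 replicate 1 alone, a fit whose spread comes from the controls, gave 0 members lower, 142 rows lower and 293 higher. Leaving out 1 library gave 1 to 12 members lower and 0 to 1 higher, 388 to 1046 rows lower and 696 to 1448 higher, and a member median between -0.37 and -0.18. The causes were not tested.

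The labels give same-numbered libraries no link beyond the number. Their deviations from the group means correlated at 0.086, 0.064 and 0.225 over 23167 rows for numbers 1, 2 and 3. Over all rows the replicate 3 libraries correlated at -0.148 to -0.115 with the other numbers, and numbers 1 and 2 were not told apart. Over the 27 members the replicate 3 libraries correlated at 0.596 with each other and at -0.557 to -0.243 with the other numbers. Deviations from a group mean cancel out over the libraries of the group, so these correlations are tied to one another. The negative values follow in part from the positive one and add no separate evidence. The members gave 0.134 for number 1 and -0.213 for number 2. Across these numbers they gave 0.686 (BP-3 replicate 1, control replicate 2) and 0.479 (BP-3 replicate 2, control replicate 1). With the replicate block 18 members were lower, with 2279 rows lower and 2747 higher. These were the same 18 as without both replicate 3 libraries. The block also takes out the shift of replicate 3, so it shares the limit of the replicate 3 term and is not independent support.

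Direction changed for genes not past the threshold. With BP-3 replicate 1 alone, sycn.1 had a log2 fold change of 0.035, cuzd1.1 0.199, nr5a2 0.046 and bhlha15 -0.093. Leaving out 1 library gave -0.26 to 0.12 for sycn.1, -0.192 to 0.058 for tmed6 and -0.50 to 0.11 for rbpjl, and without both replicate 3 libraries tmed6 had 0.030.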
